A study of Mus musculus with 8 samples.

Results

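Collagens are the triple-helical proteins of the extracellular matrix, and their genes were followed here in whole hearts of neonatal mice. A gene was counted as a collagen gene when its symbol in the expression files had the form Col, a number, the letter a and a number, and the locus with the highest mean was used where a symbol had several. This gave 43 genes of the 34275 gene symbols in the files. Hearts of male Hsd:ICR(CD-1) mice, a stock with no engineered allele and no treatment in the labels, were compared at postnatal day 1 (P1) and postnatal day 7 (P7), with 4 hearts from separate animals at each stage and the atrial appendages removed at both. RNA depleted of ribosomal RNA was sequenced from each heart. Each locus was given as fragments per kilobase of transcript, relative to the mapped total of the library (FPKM). This level is scaled for transcript length and library size. The expression files give no read counts, and the depth behind each value was not analysed here. The study set the stage at which the mouse heart still regenerates against the stage at which it no longer does, and the comparison P7 against P1 asks which transcripts differ between them.

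Each collagen molecule is a triple helix of chains, which may be copies of one gene product or products of different genes. Fibrillar collagens (types I, III and V in most soft tissues) assemble into the banded fibrils that give tissue its tensile strength, whereas type IV collagen forms the sheet-like network of basement membranes around cardiomyocytes and vessels. Type VI collagen forms beaded filaments beside the basement membrane, and the multiplexins, types XV and XVIII, link basement membranes to the matrix around them. FACIT collagens (fibril-associated collagens with interrupted triple helices) sit on the surface of fibrils, and smaller groups form hexagonal networks or span the cell membrane. In the heart the fibrillar chains are known mainly as products of fibroblasts and the type IV chains as products of endothelial cells, mural cells, fibroblasts and cardiomyocytes. By structural class the files held 11 fibrillar genes, 6 basement membrane genes, 6 beaded-filament genes, 2 multiplexins, 9 FACIT genes, 3 short-chain network genes, 4 transmembrane genes, 1 anchoring-fibril gene (Col7a1) and 1 further gene (Col28a1).

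Several of these genes lie side by side, and the sequence around their start sites is shown for the neighbours whose levels are set against each other below and for 4 further genes. Col4a1 (GENCODE annotation of GRCm38, chr8:11198423-11312826, minus strand) and Col4a2 (chr8:11312805-11449287, plus strand) lie head to head. Their starts are 21 bases apart, and their spans overlap over these first bases. Col4a6 (chrX:141165403-141474076, minus strand) and Col4a5 (chrX:141475385-141689234, plus strand) also lie head to head, but do not overlap, with 1309 bases between the starts. The sequences are RefSeq windows of GRCm38.p6 that run from 250 bases before the start to 50 bases after it, in the direction of the gene. Capitals mark a CCAAT box (CCAAT), a GC box (GGGCGG) or a TATA box (TATAAA), searched on both strands, so that ATTGG and CCGCCC are the first 2 motifs on the other strand. The Col4a1 window is chr8:11312777-11313076 and the Col4a2 window chr8:11312555-11312854, and 78 bases belong to both. The Col4a5 window is chrX:141475169-141475468 and the Col4a6 window chrX:141474027-141474326. Windows of Col3a1 (chr1:45311288-45311587, plus strand) and Col1a2 (chr6:4505368-4505667, plus strand) are given for fibrillar chains of very high level, and those of Col5a3 (chr9:20815018-20815317, minus strand) and Col15a1 (chr4:47207762-47208061, plus strand) for the genes whose difference between the stages passed the test with each heart left out in turn.
Col4a1: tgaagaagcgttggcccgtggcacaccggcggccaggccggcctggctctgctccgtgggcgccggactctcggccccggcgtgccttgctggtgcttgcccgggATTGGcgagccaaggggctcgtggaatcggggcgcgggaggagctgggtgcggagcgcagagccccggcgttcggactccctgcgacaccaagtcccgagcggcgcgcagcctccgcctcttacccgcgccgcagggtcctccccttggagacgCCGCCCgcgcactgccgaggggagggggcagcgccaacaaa
Col4a2: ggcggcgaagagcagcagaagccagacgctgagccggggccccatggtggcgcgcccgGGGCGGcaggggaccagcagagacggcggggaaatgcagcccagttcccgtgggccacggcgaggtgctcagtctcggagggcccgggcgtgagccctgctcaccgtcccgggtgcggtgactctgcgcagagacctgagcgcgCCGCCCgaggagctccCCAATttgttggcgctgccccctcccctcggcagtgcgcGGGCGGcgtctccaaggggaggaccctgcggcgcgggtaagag
Col4a5: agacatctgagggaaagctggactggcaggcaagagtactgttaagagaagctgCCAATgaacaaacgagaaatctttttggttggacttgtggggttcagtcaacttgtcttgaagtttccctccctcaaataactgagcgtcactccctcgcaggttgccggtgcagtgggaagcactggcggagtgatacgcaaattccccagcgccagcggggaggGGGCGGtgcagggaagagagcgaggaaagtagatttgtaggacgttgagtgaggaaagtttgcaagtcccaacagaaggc
Col4a6: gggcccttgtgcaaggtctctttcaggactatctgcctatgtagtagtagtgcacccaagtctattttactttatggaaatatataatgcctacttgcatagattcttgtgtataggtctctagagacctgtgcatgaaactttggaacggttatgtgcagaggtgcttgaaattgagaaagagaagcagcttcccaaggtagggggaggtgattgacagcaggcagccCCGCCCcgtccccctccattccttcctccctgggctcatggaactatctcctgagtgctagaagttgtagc
Col3a1: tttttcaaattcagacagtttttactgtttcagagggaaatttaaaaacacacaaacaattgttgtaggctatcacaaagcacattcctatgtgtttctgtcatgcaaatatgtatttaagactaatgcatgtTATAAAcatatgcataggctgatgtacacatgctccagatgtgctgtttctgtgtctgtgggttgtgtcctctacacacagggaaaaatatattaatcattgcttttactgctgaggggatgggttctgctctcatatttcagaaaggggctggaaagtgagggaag
Col1a2: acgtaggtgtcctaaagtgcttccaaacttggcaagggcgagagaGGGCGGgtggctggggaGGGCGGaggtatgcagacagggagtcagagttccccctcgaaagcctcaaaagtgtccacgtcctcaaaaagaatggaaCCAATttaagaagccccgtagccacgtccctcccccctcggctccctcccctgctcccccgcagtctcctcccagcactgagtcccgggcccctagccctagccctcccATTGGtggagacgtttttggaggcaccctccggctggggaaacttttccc
Col5a3: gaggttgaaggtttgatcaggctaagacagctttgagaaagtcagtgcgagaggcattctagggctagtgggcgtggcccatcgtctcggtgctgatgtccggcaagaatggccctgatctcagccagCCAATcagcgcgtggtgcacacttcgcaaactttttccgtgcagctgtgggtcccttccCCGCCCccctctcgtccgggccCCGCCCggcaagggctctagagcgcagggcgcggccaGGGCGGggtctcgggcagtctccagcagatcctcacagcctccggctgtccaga
Col15a1: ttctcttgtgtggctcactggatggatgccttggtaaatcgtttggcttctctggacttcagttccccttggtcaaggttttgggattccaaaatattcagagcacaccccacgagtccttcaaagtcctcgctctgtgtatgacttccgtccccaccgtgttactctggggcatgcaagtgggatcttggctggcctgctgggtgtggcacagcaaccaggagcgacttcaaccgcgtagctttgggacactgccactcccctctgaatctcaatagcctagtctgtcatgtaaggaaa
A window was given for 35 of the 43 genes, 38 windows in all. The GC box was in 23 of them (60.5%) against 35.7% of all 32851 windows of the genome, the CCAAT box in 13 (34.2%) against 37.4%, and the TATA box in 5 (13.2%) against 13.6%. A match is a description of the letters only. The Col4a1 and Col4a2 windows were rich in G and C (74.0% and 73.7%), while the Col3a1 window held 37.7% and a TATA box, and no motif of the 3 was found in the Col15a1 window.

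The levels of the collagen genes ran over several orders of magnitude. The mean over the 8 hearts was at least 100 FPKM for 6 genes, 10 to 100 for 10, 1 to 10 for 17 and under 1 for 10. The 6 highest were Col3a1, Col4a2, Col1a1, Col4a1, Col1a2 and Col4a5, and these 6 made up 73.9 ± 1.29% of the summed collagen FPKM at P1 and 78.4 ± 0.396% at P7 (SD, n = 4). No heart reached 1 FPKM for Col2a1, the cartilage fibril collagen, or for Col6a4, Col6a5, Col19a1, Col22a1 and Col28a1, and these 6 genes were not tested. Of the 37 tested, Col4a3, Col11a2, Col17a1 and Col25a1 reached 1 FPKM in P7 hearts alone, so that the filter on low values admitted them through that stage. Of 7 cartilage markers measured, Matn1, Matn3 and Cnmd stayed under 1 FPKM in every heart, Sox9 (5.46 FPKM at P1 and 6.74 at P7), Acan (1.76 and 1.89) and Hapln1 (1.39 and 0.765) did not pass the test, and Comp was higher at P7 (0.358 and 1.64, adjusted p = 0.0192 in limma), with no P1 heart at 1 FPKM. The sum of the list was 8.58 to 10.6 FPKM at P1 and 9.37 to 12.9 at P7. Cardiomyocyte markers were high, with Myl2, a ventricular myosin light chain, at a mean of 12097 FPKM.

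**Figure D1:**
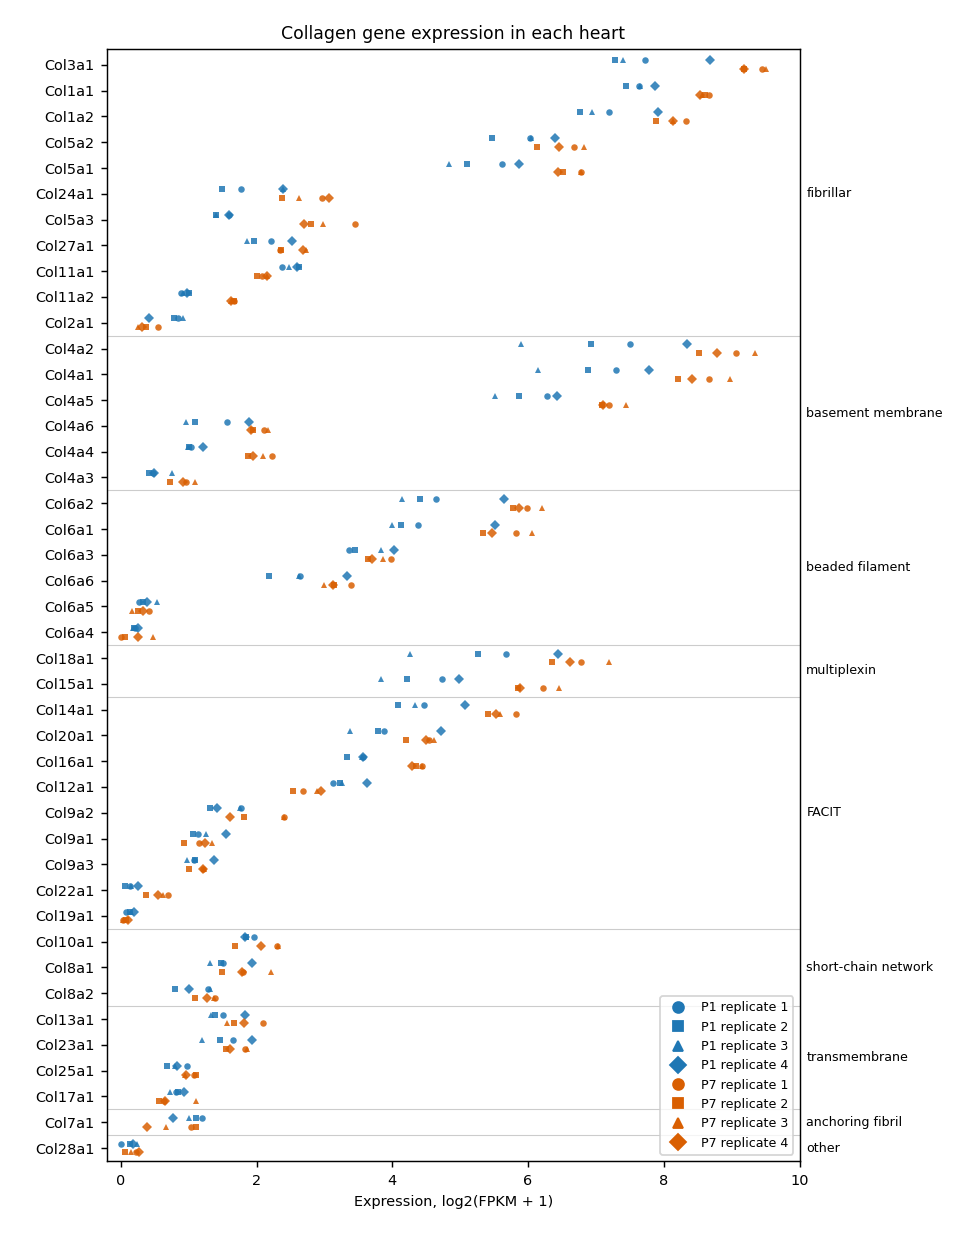
Expression of the 43 collagen genes in each heart. The horizontal axis gives log2(FPKM + 1), the rows are genes ordered by mean within their structural class, and each marker is 1 heart (P1 blue, P7 orange, 1 marker shape for each replicate number). Most fibrillar and basement membrane genes with high levels have all P7 markers to the right of the P1 markers, Col11a1 and Col12a1 have them to the left, and the stages overlap for most FACIT genes and for all short-chain, transmembrane and anchoring-fibril genes.

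Across the 37 tested genes, 13 (35.1%) were higher at P7, none was lower and 24 did not pass the test. The 13 include Col11a2, which the filter on low values admitted through its P7 hearts alone. The test was limma on log2(FPKM + 1) over all 43172 loci at 1 FPKM or more in at least 1 heart, and a gene was called where its adjusted p (Benjamini-Hochberg) was under 0.05 and its stage means differed by a factor of 1.5 or more. Of all 17960 annotated loci in that fit, 7.74% were called higher and 0.401% lower. At an unadjusted p under 0.05, 20 collagen genes were higher and 2, Col11a1 and Col12a1, were lower. The share of annotated loci at that unadjusted p was not computed. The fold changes were above 0 for 32 genes and below 0 for 5, where 67.6% of annotated loci were above 0. Their median was 0.54 on the log2 scale, against 0.19 over all annotated loci tested. All P7 hearts exceeded all P1 hearts for 14 of the 37 genes (37.8%, against 17.3% of annotated loci) and were below them for 2 (5.41%, against 2.69%). Col11a2 is also among these 14. Of the 16 genes with a mean of at least 10 FPKM, 10 were called and all 16 had a positive fold change. Of the 21 below that level, 3 were called (Col5a3, Col11a2 and Col4a4). The shares of annotated loci called above and below that level were not computed. The log2(FPKM + 1) scale also understates the change of low genes. Col11a2 had a ratio of stage means of 2.30 and a log2 fold change of 0.70.

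The count depended on single hearts and on the correction for base composition. It fell to 2 genes, Col5a3 and Col15a1, without P1 replicate 2, without P7 replicate 1 or without P7 replicate 3. It was 8 without P1 replicate 1, 7 without P1 replicate 3 and 19 without P1 replicate 4. The share of annotated loci called in the fits with hearts left out was not computed, so these counts cannot be set against it. In both stages the highest and lowest values fell mainly in certain hearts. P7 replicate 3 had the highest value of its stage for 21 of the 37 genes and P7 replicate 2 the lowest for 24. The study's supplement lists by far the fewest reads for P7 replicate 3, and the part of depth in these values was not tested. The factors used for scaling by median ratios, taken over annotated loci, were 0.942 in P7 replicate 2 and 1.27 in P7 replicate 3. They were 0.801 in P1 replicate 3 and 1.16 in P1 replicate 4. P1 replicate 4 had the highest value of its stage for 28 of the 37 genes and P1 replicate 3 the lowest for 18. With both of these P1 hearts left out 16 genes were called. P1 replicate 3 also had 28662 loci at 1 FPKM or more, against 20269 to 22292 in the other 7 hearts. Correction of each heart for transcript GC content left 6 genes (Col3a1, Col4a4, Col4a5, Col5a3, Col14a1 and Col15a1) with 2.15% of annotated loci called higher and 0.145% lower. Scaling the hearts by median ratios brought the median fold change of annotated loci from 0.19 to 0.00, and 14 collagen genes were then higher and 2, Col11a1 and Col12a1, lower, with 7.76% and 3.47% of annotated loci called. The medians of collagen fold changes under that scaling and under the GC correction were 0.51 and 0.40.

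**Figure D2:**
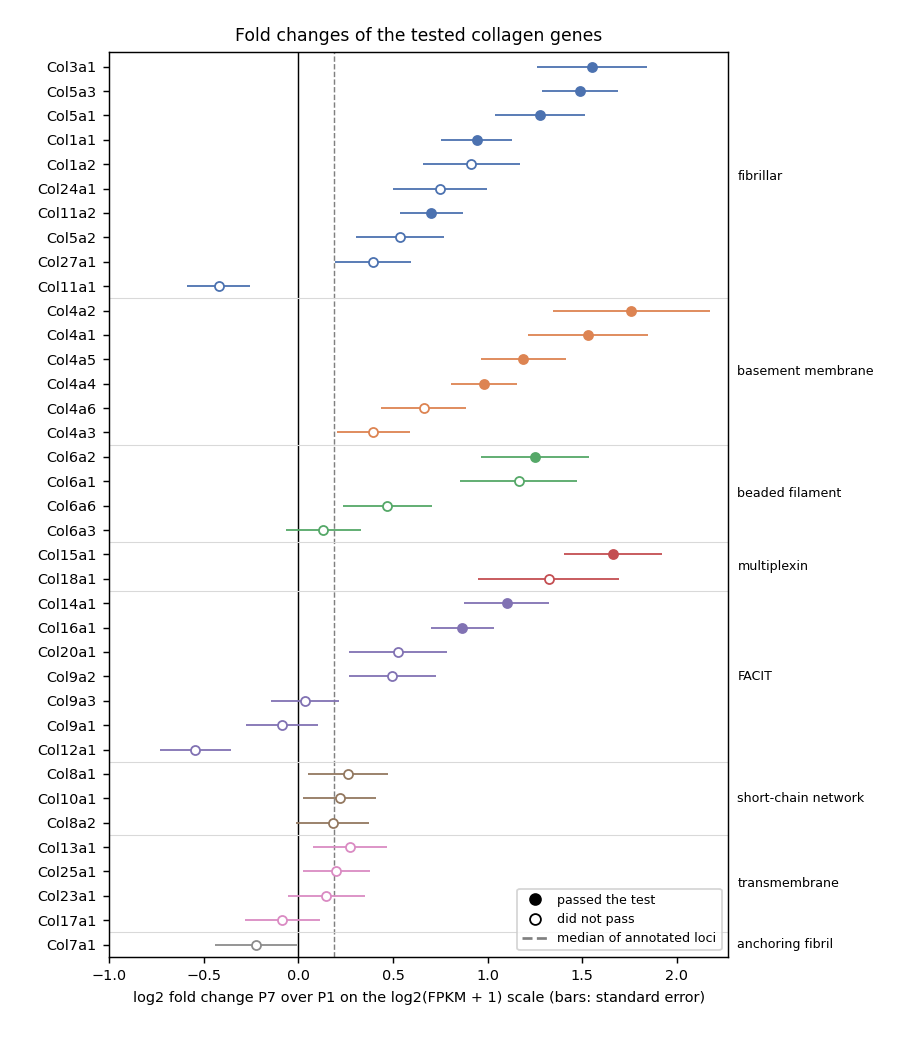
log2 fold changes of the 37 tested collagen genes, P7 over P1, on the log2(FPKM + 1) scale. Rows are genes sorted within structural class, points are limma estimates with standard errors as bars, filled points passed the test and open points did not, and the dashed line is the median of the annotated loci (0.19). Col4a2 (1.76), Col15a1 (1.66), Col3a1 (1.55) and Col4a1 (1.53) lie farthest to the right, and Col12a1 (-0.55) farthest to the left.

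Among the fibrillar genes, 5 of 10 tested were higher at P7 with a median fold change of 0.83. The 5 include Col11a2, which the filter on low values admitted through its P7 hearts alone. This count and those of the classes below are to be read against the 7.74% of annotated loci called higher. Type I collagen, the main fibril protein of scar and of most connective tissue, is made of chains from Col1a1 and Col1a2. Col1a1 (chr11:94936224-94953042) had 198, 172, 199.9 and 233 FPKM in the P1 hearts (replicates 1 to 4) and 405, 391, 376 and 368 FPKM in the P7 hearts. The stages did not overlap, and the fold change was 0.94 ± 0.19 (log2, SE, adjusted p = 0.0213 in limma). Col1a2 (chr6:4504814-4541544) had 145, 108, 122 and 241 FPKM in the P1 hearts and 319.5, 235, 279.9 and 279.7 FPKM in the P7 hearts. Its stages overlapped by a single heart, P1 replicate 4, and the fold change was 0.91 ± 0.25 (log2, SE, adjusted p = 0.0689 in limma), which did not pass. The ratio of Col1a1 to Col1a2 was 1.39 ± 0.308 at P1 and 1.40 ± 0.179 at P7 (SD, n = 4, exact permutation p = 0.914, two-sided), with a range of 0.966 to 1.63 among the P1 hearts.

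Col3a1, the single chain of type III collagen and the partner of type I in compliant tissues, had the highest mean of all the collagen genes. The levels were 211, 155, 168 and 411 FPKM at P1 and 699.5, 578, 724 and 578 FPKM at P7. All P7 hearts were above the P1 hearts, and the fold change was 1.55 ± 0.29 (log2, SE, adjusted p = 0.0177 in limma). Col3a1 took 17.6 ± 2.18% of the summed collagen FPKM at P1 and 21.7 ± 0.858% at P7, and its share in each P7 heart (20.9% to 22.8%) lay above each P1 heart (15.6% to 20.4%). Against Col1a1 its ratio was 1.14 ± 0.426 at P1 and 1.68 ± 0.196 at P7, but P1 replicate 4 (1.76) stood within the P7 range and the difference did not pass the exact permutation test (p = 0.114). Its neighbour Col5a2 lies tail to tail with it on chromosome 1, 24614 bases from end to end.

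Type V collagen is built into the core of type I fibrils and sets their diameter. Col5a1, which encodes its main chain, had 48.1, 33.3, 27.5 and 57.3 FPKM in the P1 hearts and 109, 90.1, 108 and 86.2 FPKM in the P7 hearts. The stages were separate, with a fold change of 1.27 ± 0.24 (log2, SE, adjusted p = 0.0176 in limma). Col5a2, the partner chain, had 64.5, 43.5, 64.9 and 82.9 FPKM in the P1 hearts and 102, 69.1, 112 and 86.8 FPKM in the P7 hearts. These values overlapped, with a fold change of 0.54 ± 0.23 (log2, SE, adjusted p = 0.244 in limma), which did not pass. Within a heart the ratio of Col5a2 to Col5a1 went from 1.61 ± 0.501 at P1 to 0.935 ± 0.120 at P7, and the highest P7 ratio (1.03) was under the lowest P1 ratio (1.31). The exact permutation p was 0.0286, which is the smallest that 4 hearts against 4 can give, and 0.114 after adjustment over the 12 ratios tested. Col5a3, a further chain of restricted expression that can replace the others, had 2.03, 1.65, 1.63 and 2.03 FPKM in the P1 hearts and 9.97, 5.98, 6.91 and 5.52 FPKM in the P7 hearts. It had the largest ratio of stage means among the collagen genes that were called, 3.86, with a fold change of 1.49 ± 0.20 (log2, SE, adjusted p = 0.00560 in limma), and it stayed past the test with any single heart left out.

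Type XI chains are the cartilage relatives of type V, and their genes had fold changes of opposite sign. Col11a2 had 0.843, 0.9998, 0.896 and 0.972 FPKM in the P1 hearts and 2.19, 2.19, 2.08 and 2.08 FPKM in the P7 hearts. The stages did not overlap, and the fold change was 0.70 ± 0.17 (log2, SE, adjusted p = 0.0377 in limma). That call held with 1 of the 8 leave-one-out fits, without P1 replicate 4, and no P1 heart reached 1 FPKM. Col11a1 had 4.18, 5.17, 4.59 and 5.07 FPKM in the P1 hearts and 3.23, 3.03, 3.44 and 3.46 FPKM in the P7 hearts, with no overlap and lower values at P7. Its fold change was -0.42 ± 0.17 (log2, SE, adjusted p = 0.202 in limma), which did not pass, whereas under median-ratio scaling it was -0.61 with an adjusted p of 0.0331 in limma. The levels of Col24a1 and Col27a1, fibrillar chains best known from growing bone and cartilage, ran from 1.82 to 7.41 and from 2.62 to 5.62 FPKM over the 8 hearts, with fold changes of 0.75 and 0.39 that did not pass. That of Col27a1 was -0.037 after GC correction.

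The basement membrane genes had 4 of 6 called higher and a median fold change of 1.08. Type IV collagen occurs as a network of Col4a1 and Col4a2 chains in nearly all basement membranes, with other networks of the remaining 4 chains in specialised sites. Col4a1 had 156, 118, 70.02 and 220.2 FPKM in the P1 hearts and 404, 294, 502 and 339 FPKM in the P7 hearts. Col4a2 had 180.0, 121, 58.4 and 324 FPKM in the P1 hearts and 536, 365, 647 and 439 FPKM in the P7 hearts. Neither gene had overlapping stages, and both were lowest in P1 replicate 3 and highest in P7 replicate 3. The fold changes were 1.53 ± 0.32 (log2, SE, adjusted p = 0.0233 in limma) for Col4a1 and, for Col4a2, 1.76 ± 0.41 (log2, SE, adjusted p = 0.0370 in limma). After GC correction the fold changes were 1.15 and 1.31 and neither was called (adjusted p = 0.0943 and 0.149 in limma). The ratio of Col4a1 to Col4a2 was 0.929 ± 0.216 at P1 and 0.776 ± 0.0214 at P7 (exact permutation p = 0.257). In the 4 P7 hearts it kept between 0.753 and 0.805, while the P1 hearts ran from 0.681 to 1.20. The loci of this pair carry the same outer coordinates in the files, and their annotated exons overlap on opposite strands over 0.295% of the Col4a1 exonic bases.

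The pair on the X chromosome differed far more in level than the pair on chromosome 8. Col4a5 had 76.3, 57.4, 44.7 and 85.3 FPKM in the P1 hearts and 145, 136, 173 and 136 FPKM in the P7 hearts. With no overlap between the stages, its fold change was 1.19 ± 0.23 (log2, SE, adjusted p = 0.0188 in limma). Col4a6, read in the other direction from a start site 1309 bases away, had 1.95, 1.12, 0.937 and 2.71 FPKM in the P1 hearts and 3.31, 2.85, 3.51 and 2.77 FPKM in the P7 hearts. Its P7 hearts (2.77 to 3.51 FPKM) were above its P1 hearts (0.937 to 2.71 FPKM) by a narrow margin, and the fold change was 0.66 ± 0.22 (log2, SE, adjusted p = 0.136 in limma), which did not pass. The ratio of Col4a5 to Col4a6 was 42.3 ± 8.84 at P1 and 47.5 ± 2.54 at P7 and was not tested.

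Col4a3 and Col4a4, the pair on chromosome 1 whose chains form the kidney and lung network with the Col4a5 chain, were far lower. Col4a4 had 1.05, 1.00, 0.983 and 1.31 FPKM in the P1 hearts and 3.70, 2.67, 3.27 and 2.87 FPKM in the P7 hearts. The stages were separate and the fold change was 0.98 ± 0.18 (log2, SE, adjusted p = 0.0150 in limma). Col4a3 had 0.385, 0.332, 0.682 and 0.403 FPKM in the P1 hearts and 0.955, 0.656, 1.14 and 0.884 FPKM in the P7 hearts. The lowest P7 heart was under the highest P1 heart, and the fold change was 0.40 ± 0.19 (log2, SE, adjusted p = 0.293 in limma), which did not pass. Their starts lie 72 bases apart.

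Of the beaded-filament genes, 1 of 4 tested was called higher, and the median fold change was 0.82. Type VI collagen is assembled from Col6a1, Col6a2 and one more chain, usually that of Col6a3. Col6a2 had 23.9, 20.1, 16.6 and 49.1 FPKM in the P1 hearts and 62.1, 53.6, 72.8 and 57.3 FPKM in the P7 hearts. The stages did not overlap, with a fold change of 1.25 ± 0.29 (log2, SE, adjusted p = 0.0335 in limma). Col6a1 had 19.8, 16.5, 14.96 and 44.8 FPKM in the P1 hearts and 55.4, 39.2, 65.5 and 43.4 FPKM in the P7 hearts. P1 replicate 4 lay among the P7 hearts, 44.8 FPKM against at most 19.8 in the other P1 hearts, and the fold change was 1.16 ± 0.31 (log2, SE, adjusted p = 0.0578 in limma), which did not pass. Without that heart the fold change of Col6a1 was 1.50 and was called.

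Col6a3 had the smallest fold change of the type VI genes tested. Its levels were 9.27, 9.92, 13.3 and 15.2 FPKM in the P1 hearts and 14.8, 11.5, 13.5 and 11.99 FPKM in the P7 hearts. The stages overlapped, the fold change was 0.13 ± 0.20 (log2, SE, adjusted p = 0.695 in limma), and the sign turned to -0.094 with median-ratio scaling, -0.13 with quantile normalization and -0.11 with GC correction. The ratio of Col6a3 to Col6a1 within a heart was 0.574 ± 0.235 at P1 and 0.261 ± 0.0378 at P7. Each P7 ratio (0.207 to 0.294) was below each P1 ratio (0.341 to 0.888), with an exact permutation p of 0.0286 and 0.114 after adjustment over the 12 ratios. The ratio of Col6a2 to Col6a1 was 1.16 ± 0.0634 at P1 and 1.23 ± 0.133 at P7 (exact permutation p = 0.314). Col6a6, an alternative to Col6a3, ranged from 3.54 to 9.52 FPKM with a fold change of 0.47 that did not pass, and Col6a4 and Col6a5 stayed under 1 FPKM.

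**Figure D3:**
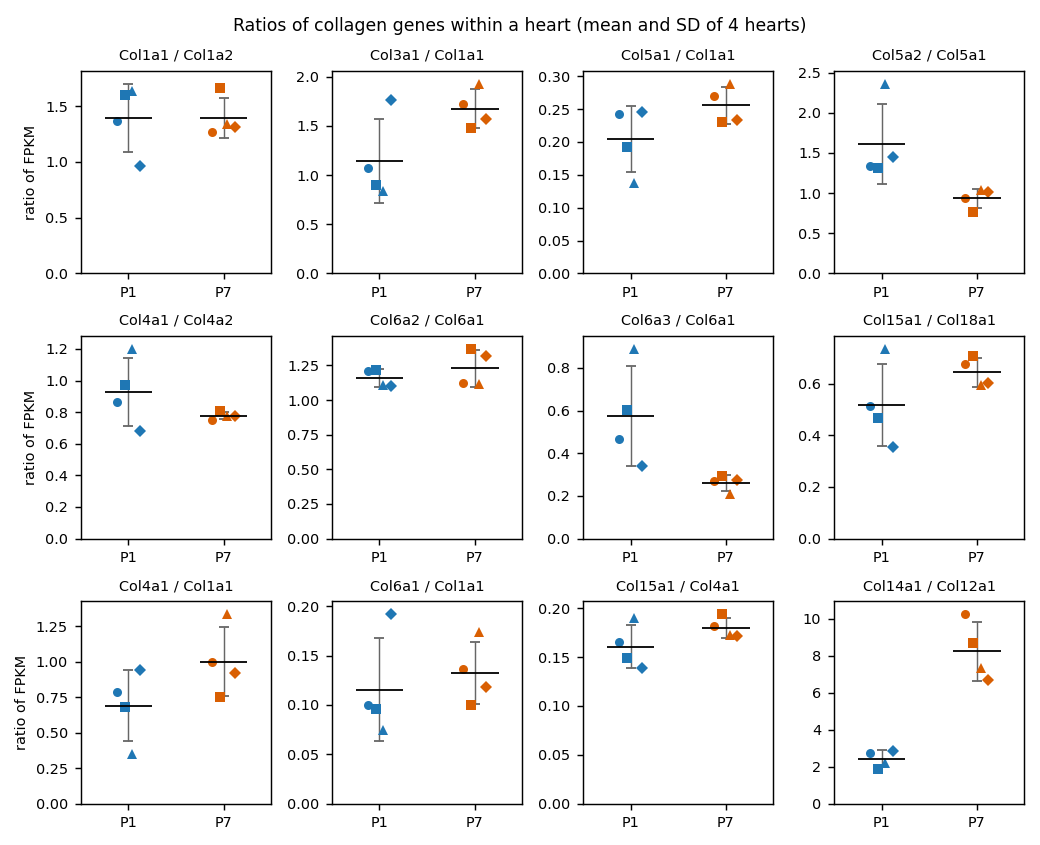
Ratios of FPKM between collagen genes within a heart, 1 panel for each of the 12 ratios tested. The vertical axes start at 0, markers are hearts (P1 blue, P7 orange), horizontal lines are stage means and bars are the SD of 4 hearts. The stages are separate for Col5a2 / Col5a1, Col6a3 / Col6a1 and Col14a1 / Col12a1 and overlap in the other panels.

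Both multiplexins had a positive fold change and 1 was called. Col15a1, whose chain joins fibrils to the basement membranes of muscle and capillaries, had 25.7, 17.5, 13.3 and 30.5 FPKM in the P1 hearts and 73.4, 56.9, 86.4 and 58.2 FPKM in the P7 hearts. The lowest P7 heart was well above the highest P1 heart, and the fold change was 1.66 ± 0.26 (log2, SE, adjusted p = 0.00851 in limma). It passed the test with each heart left out in turn, where its fold change ran from 1.46 to 1.84, as well as after GC correction (1.33, adjusted p = 0.0296 in limma). Col18a1, the precursor of endostatin, a fragment that inhibits vessel growth, had 50.04, 37.6, 18.1 and 86.3 FPKM in the P1 hearts and 108, 80.6, 146 and 96.99 FPKM in the P7 hearts. Here P1 replicate 4 overlapped the P7 range and P1 replicate 3 was far below the other P1 hearts, and the fold change was 1.32 ± 0.37 (log2, SE, adjusted p = 0.0745 in limma), which did not pass. The ratio of Col15a1 to Col18a1 was 0.517 ± 0.159 at P1 and 0.644 ± 0.0559 at P7 (exact permutation p = 0.171), and the ratio of Col15a1 to Col4a1 was 0.161 ± 0.0222 and 0.180 ± 0.0103 (exact permutation p = 0.2).

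Of the 18 genes of all other types, 15 were tested and 2 were higher at P7, with a median fold change of 0.20. Both were FACIT genes. Col14a1 (undulin), which binds fibrils through decorin, had 21.2, 15.9, 19.1 and 32.6 FPKM in the P1 hearts and 55.8, 41.7, 47.04 and 44.98 FPKM in the P7 hearts. Its stages were separate, with a fold change of 1.10 ± 0.22 (log2, SE, adjusted p = 0.0225 in limma). Col16a1, which lies on thin fibrils near basement membranes, had 10.9, 9.10, 10.7 and 10.9 FPKM in the P1 hearts and 20.6, 19.3, 20.6 and 18.6 FPKM in the P7 hearts. The spread within each stage was small and there was no overlap, with a fold change of 0.87 ± 0.16 (log2, SE, adjusted p = 0.0188 in limma), which was not called after GC correction (0.40, adjusted p = 0.252 in limma).

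Col12a1, the closest relative of Col14a1, had a fold change of the opposite sign. It had 7.72, 8.39, 8.59 and 11.4 FPKM in the P1 hearts and 5.44, 4.81, 6.39 and 6.73 FPKM in the P7 hearts. Every P7 heart was below every P1 heart, and the fold change was -0.55 ± 0.19 (log2, SE, adjusted p = 0.140 in limma), which did not pass, while median-ratio scaling gave -0.76 with an adjusted p of 0.0122 and quantile normalization -0.79 with 0.0138. The ratio of Col14a1 to Col12a1 was 2.43 ± 0.452 at P1 and 8.24 ± 1.58 at P7, so that the lowest P7 ratio (6.69) was above the highest P1 ratio (2.86), with an exact permutation p of 0.0286 and 0.114 after adjustment over the 12 ratios. The value listed for Col20a1 (9.39 to 25.2 FPKM over the 8 hearts) belongs to a locus that also carries Arfgap1 and 9230112E08Rik and cannot be read as Col20a1 alone.

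The remaining genes were low and none was called. The type IX genes Col9a1, Col9a2 and Col9a3, whose chains coat cartilage fibrils, lay between 0.905 and 4.30 FPKM, with fold changes of -0.09, 0.50 and 0.03. The short-chain genes Col8a1, Col8a2 and Col10a1, of which type VIII is a vessel-wall and corneal collagen, lay between 0.731 and 3.98 FPKM with fold changes of 0.18 to 0.26. The Col10a1 locus spans 130265 bases (chr10:34288288-34418552), against chr10:34389981-34397085 for the annotated gene. Whether its value is that of Col10a1 alone was not tested. The transmembrane genes Col13a1, Col17a1, Col23a1 and Col25a1 lay between 0.480 and 3.26 FPKM with fold changes of -0.09 to 0.27. Col7a1, the anchoring fibril of skin, had a fold change of -0.22, and its locus also carries Mir711. The sign turned under median-ratio scaling for Col23a1 (-0.0098) and Col9a3 (-0.095), under quantile normalization for Col17a1 (0.068) and under GC correction for Col8a2 (-0.25), Col13a1 (-0.15), Col23a1 (-0.12) and Col9a3 (-0.39).

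The summed FPKM of the collagen genes was 1306 ± 499.8 at P1 and 2985 ± 428 at P7 (SD, n = 4), and each P7 heart (2535 to 3466) was above each P1 heart (919 to 2013). No test was made of these sums, since they are scores over the chosen genes. The fibrillar share was 55.5 ± 6.34% at P1 and 51.3 ± 3.25% at P7, and the basement membrane share 28.2 ± 6.07% and 34.4 ± 2.84%, both with overlapping ranges. P1 replicate 3 set most of that spread, with a fibrillar share of 65.0% and a basement membrane share of 19.1%, where the other P1 hearts had 51.9% to 53.0% and 30.2% to 31.9%. The difference of the means, P7 minus P1, was -4.19 percentage points for the fibrillar share and 6.27 for the basement membrane share, and it was -1.03 and 3.25 without that heart. The FACIT share was 4.25% to 5.75% at P1 and 3.04% to 3.56% at P7 with the locus shared by Col20a1 and Arfgap1, and 3.04% to 4.78% and 2.37% to 2.80% without it. The transmembrane share was 0.352% to 0.481% at P1 and 0.193% to 0.233% at P7, and the short-chain share 0.317% to 0.606% and 0.203% to 0.266%. None of the FACIT, transmembrane and short-chain ranges overlapped between the stages. The shares of a heart add up to a fixed total, so a lower share is not a lower level. The summed FPKM was 50.1 to 85.6 at P1 and 88.0 to 112 at P7 for FACIT genes. It was 4.20 to 7.08 and 5.74 to 7.47 for transmembrane genes, and 5.10 to 6.38 and 5.14 to 9.21 for short-chain genes.

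**Figure D4:**
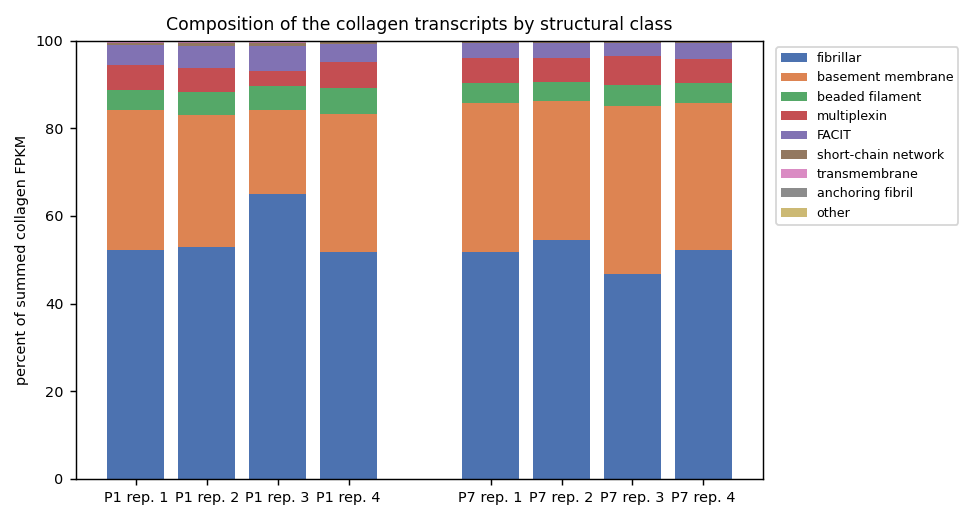
Share of each structural class in the summed collagen FPKM of a heart. The vertical axis is percent from 0 to 100, and each bar is 1 heart, the 4 P1 hearts on the left and the 4 P7 hearts on the right. Fibrillar and basement membrane genes fill 83.1% to 86.2% of each bar, and P1 replicate 3 has the largest fibrillar part (65.0%).

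Collagen chains are hydroxylated and folded in the endoplasmic reticulum, cut outside the cell and cross-linked, and the genes of these steps were read from the same fit. Of 46 tested among 49 listed, 10 were higher at P7 and 0 lower, against 7.74% and 0.401% of annotated loci. The 10 include Pcolce2, which passed the filter on low values through its P7 hearts alone. At an unadjusted p under 0.05, 17 were higher and 0 lower, and no share of annotated loci was computed at that level. The median fold change was 0.32, against 0.19 over annotated loci. In chain modification 2 of 15 were higher, Plod1 (a lysyl hydroxylase, 15.1 ± 6.97 FPKM at P1 and 31.7 ± 6.88 at P7) and P3h3 (a prolyl 3-hydroxylase). Among 9 folding and secretion genes 1 was higher, Serpinh1, which encodes the collagen chaperone HSP47. Serpinh1 had 70.6, 56.3, 42.7 and 111 FPKM in the P1 hearts and 147, 142, 247 and 178 FPKM in the P7 hearts. The stages did not overlap, with a fold change of 1.39 ± 0.29 (log2, SE, adjusted p = 0.0233 in limma).

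Propeptide removal, which lets procollagen form fibrils, had 4 of 7 tested genes higher. Pcolce2, an enhancer of the C-proteinase, had 0.921, 0.583, 0.436 and 0.627 FPKM in the P1 hearts and 4.06, 3.59, 5.66 and 4.25 FPKM in the P7 hearts. Its P7 hearts were all above its P1 hearts, and the fold change was 1.71 ± 0.19 (log2, SE, adjusted p = 0.00244 in limma), but it passed the filter on low values through its P7 hearts alone. Bmp1, the C-proteinase itself, had a fold change of 1.34 ± 0.25 (log2, SE, adjusted p = 0.0181 in limma). Adamts2, the N-proteinase, and Pcolce had fold changes of 1.02 and 0.91 (adjusted p = 0.0483 and 0.0359 in limma).

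Of the cross-linking genes 2 of 6 tested were higher. Loxl1, a lysyl oxidase that acts on elastin and collagen, had 10.3, 6.53, 6.31 and 12.3 FPKM in the P1 hearts and 26.4, 25.8, 29.3 and 24.6 FPKM in the P7 hearts. The hearts of the stages were far apart, and the fold change was 1.53 ± 0.22 (log2, SE, adjusted p = 0.00679 in limma). Loxl3 had a fold change of 0.93 ± 0.22 (log2, SE, adjusted p = 0.0387 in limma). Lox, the founding member, was at 24.0 ± 5.50 FPKM at P1 and 20.6 ± 3.96 at P7 with a fold change of -0.20 that did not pass. Of the 9 receptor genes tested 1 was higher, whose values are not given. Mrc2, an endocytic collagen receptor, had the largest fold change of the receptors, 0.99, and did not pass (adjusted p = 0.0981 in limma). The loci of P3h3 and Pcolce carry a second gene each (Gpr162 and Fbxo24). The count of 10 was 2 after GC correction, where 2.15% of annotated loci were called higher, and 2 without P1 replicate 2, without P7 replicate 1 or without P7 replicate 3, 3 without P1 replicate 3, 4 without P1 replicate 1 or P7 replicate 4, 5 without P7 replicate 2 and 16 without P1 replicate 4. No share of annotated loci was computed for the fits that leave out 1 heart. Loxl1 passed in all 8 of them.

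**Figure D5:**
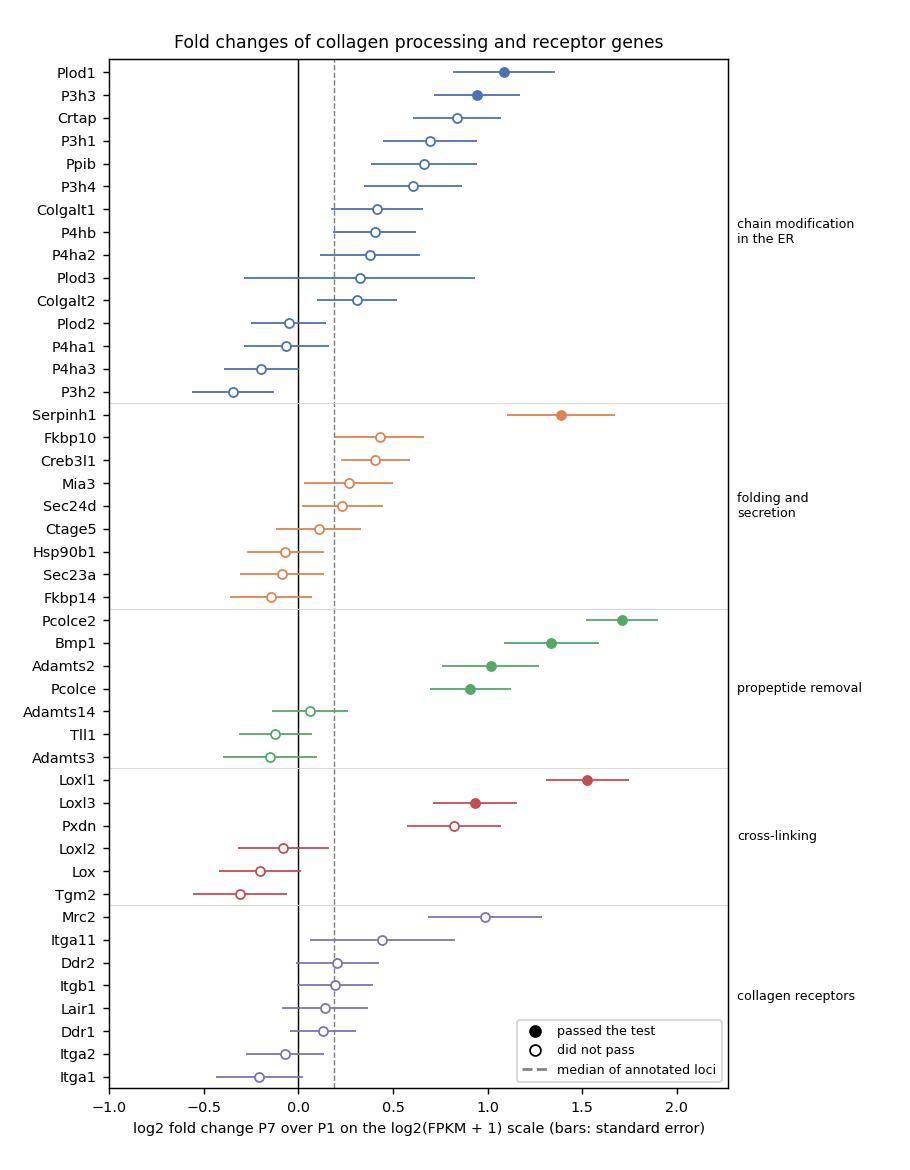
log2 fold changes, P7 over P1, of 45 of the 46 tested genes of collagen processing and binding on the log2(FPKM + 1) scale. Rows are genes sorted within the step they serve, bars are standard errors, filled points passed the test, and the dashed line is the median of the annotated loci. Pcolce2 (1.71), Loxl1 (1.53) and Serpinh1 (1.39) lie farthest to the right.

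Markers of several cell types were also higher at P7, and their counts are to be read against the 7.74% of annotated loci called higher. Of 10 fibroblast markers 6 were higher at P7 (Tcf21, Dcn, Lum, Thy1, Gsn and Mfap5, fold changes 1.00 to 1.38), and the sum over all 10, of which Ddr2 is also a collagen receptor, was 455 to 816 FPKM at P1 and 855 to 1186 at P7. Of 10 endothelial markers 3 were higher (sum 2168 to 2271 against 2394 to 3866 FPKM), and of 10 pericyte and smooth muscle markers 3 were higher and 1, Cnn1, lower (sum 350 to 740 against 334 to 496 FPKM). Fabp4 (mean 1397 FPKM) was the largest part of the endothelial sum and Acta2 (mean 214 FPKM) of the other, and neither was called. The Eng locus also carries Ak1, and the Egfl7 locus also carries Fam69b, Gm20532 and Mir126. None of the 10 cardiomyocyte markers was called (3 higher and 1 lower at an unadjusted p under 0.05, where no share of annotated loci was computed). In whole-heart RNA a change in the number of cells of a type and a change in the RNA of each cell cannot be told apart, and the part of the marker shifts in the collagen values was not tested.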

How the data were processed

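RNA-seq of 8 hearts, 4 at P1 and 4 at P7, was analysed, each a separate animal by its identifier. The deposited values are FPKM per locus, which the authors' provider made from paired-end reads of 1 library per heart aligned to GRCm38 with an Ensembl annotation. The aligner is not given in the sources used here, and neither is the strand setting of the counting. The expression files hold no counts. The study's supplement lists the reads of each library, with by far the fewest for P7 replicate 3, but those totals were not used here, so no depth or interval for counting error was computed. The number of hearts limits the precision.

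Loci that reached 1 FPKM in any heart were tested with limma 3.58.1 in R 4.3.3 on log2(FPKM + 1), with an empirical Bayes trend, no covariate and Benjamini-Hochberg adjustment over all tested loci. Fold changes on this scale understate the change of genes of low level. Calls needed an adjusted p under 0.05 and stage means that differed 1.5 times or more. Of the annotated loci tested, 85.9% had a transcript GC content for the GC correction, as did all 43 collagen genes. Ratios of 2 collagen genes were tested on the log2 scale with the exact permutation test over all 70 assignments of the hearts, two-sided, and adjusted over 12 ratios. The scripts were tested on simulated data. Python 3.11.15, pandas 2.3.3 and scipy 1.17.1 were used.

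The collagen genes, their classes and the gene lists were chosen with earlier results of these data known. Values in every heart are given for each collagen gene called, the 12 with the highest mean, both multiplexins and all type IV chains, and of the processing genes those called and the largest fold change in each list are named, except 1 called receptor gene that is not reported here. Col6a3 and Col12a1 were added as members of the tested ratios, and Col11a1 and Lox were singled out after their values were seen. Col26a1 is listed in the files under its older symbol Emid2 and was left out by the rule, and Col21a1 was not analysed here. Alternatives were another pseudocount, other filters, scalings and variance models, a replicate block, GC correction, adjusted p alone and each heart left out in turn. Promoter windows came from RefSeq (GRCm38.p6), and protein sequences were not used here.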

Additional observations from a re-analysis of the deposited data

Results flagged for a closer look

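In each stage the highest and lowest of the 4 hearts were compared with the others by Dixon's gap ratio, whose critical value is passed by chance in about 1 group in 20. Of 128 groups examined 11 were marked, where 6.4 would be marked by chance. Single-gene values of P1 replicate 4 stood above the other P1 hearts for Col6a1 (44.8 against 15.0 to 19.8 FPKM) and the collagen receptor Mrc2 (10.2 against 3.42 to 4.27 FPKM). P1 replicate 3 held 4 of the marks, with a ratio of Col5a2 to Col5a1 of 2.36 against 1.31 to 1.45, a fibrillar share of 65.0% against 51.9% to 53.0%, a basement membrane share of 19.1% against 30.2% to 31.9%, and a multiplexin share of 3.42% against 5.56% to 5.82% of the summed collagen FPKM. The shares of a heart add up to a fixed total, so that these 3 are not independent.

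The other marks were small in size or at low levels. Col16a1 was 9.10 FPKM in P1 replicate 2 against 10.7 to 10.9 in the other P1 hearts, and Col10a1 was 2.89 FPKM in P1 replicate 1 against 2.54 to 2.60. In P7 replicate 2 Col9a3 was 1.00 FPKM against 1.32 to 1.33 in the other P7 hearts. In P7 replicate 3 Col17a1 was 1.16 FPKM against 0.480 to 0.578, and the beaded-filament share was 4.59% against 4.43% to 4.44%. What set these hearts apart was not tested.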

How the results depend on the processing

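The count of 13 collagen genes higher at P7 was 6 with GC correction and 5 with GC correction and the replicate block together, and it ranged from 2 to 19 with 1 heart left out. The replicate block alone gave 12, and the other alternatives gave 9 to 18. The count of 0 lower collagen genes was 2 with median-ratio scaling and 1 with quantile normalization, and the share of higher loci among all called loci was 90.3%, 62.2% and 81.4% in the main, median-ratio and quantile settings. The count of 10 processing genes was 3 with no filter, 6 with the replicate block, 4 without the variance trend, 2 with GC correction and 2 with GC correction and the block, and ranged from 2 to 16 with 1 heart left out. For the fits with a heart left out no share of annotated loci was computed. Col6a3 reversed from 0.13 to -0.094 with median-ratio scaling, -0.13 with quantile normalization, -0.11 with GC correction and -0.11 with GC correction and the block. The causes were not tested. All 36 alternative values of the shares moved by less than the spread between hearts. For the fibrillar and basement membrane shares, P1 replicate 3 set most of that spread. Without that heart both differences between the stages were smaller, as given above. The 12 ratios kept their sign in every alternative run, except Col1a1 to Col1a2, whose log2 difference between the stages was 0.03 and became -0.14 without P1 replicate 4 and -0.059 without P7 replicate 2. Same-numbered hearts did not deviate together on average (mean correlation of deviations -0.01, against 0.00 for different numbers). Of 8 hearts, 2 were nearest to their own number. Deviations within a stage add up to 0, so these means are not independent of each other and cannot exclude pairs. The labels give the numbers as replicate names only. Exact p-values of the ratios with a heart left out are not given here. Leaving out P1 replicates 3 and 4 together was chosen after seeing the data. With no read counts in the files, the counting error of low values was not computed.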
